A study of Mus musculus with 12 samples.

Results

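Repeated inhaled endotoxin alone was compared with a tobacco carcinogen alone in the lung, as the 3 LPS arrays against the 3 NNK arrays of a mouse study of 12 arrays. The 6 arrays were chosen by the group that the sample titles give, and no PBS control array entered the contrast. The labels describe female FVB/N mice (FVB/NJ in another field), 7 weeks old at the start. The LPS mice received bacterial lipopolysaccharide through the nose at 5 ug per mouse once a week for 16 weeks. The NNK mice received the nitrosamine NNK by intraperitoneal injection at 3 mg per mouse during the first 4 weeks only, an interval that one field calls biweekly and another semi-weekly. Both groups were killed 1 week after the last treatment, so the agent, its route, the length of treatment and possibly the age at death differ together and cannot be told apart in this contrast. The labels name no vehicle given to the NNK mice. The other 6 arrays, 3 from mice given PBS for 16 weeks and 3 from mice given LPS and NNK together, are used only as levels beside the results.

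Lipopolysaccharide, a component of the outer membrane of Gram-negative bacteria, is sensed by Toll-like receptor 4 with CD14 and MD-2 and switches on NF-kB and interferon-dependent genes in macrophages and epithelium. NNK, 4-(methylnitrosamino)-1-(3-pyridyl)-1-butanone, is activated by cytochrome P450 enzymes to products that alkylate DNA, and it causes lung adenomas in susceptible mouse strains. Interferon gamma from T cells and natural killer cells induces the chemokines Cxcl9 and Cxcl10 and a family of GTPases that act on intracellular pathogens.

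Total RNA of lung tissue was labelled with 1 dye and hybridised to Agilent mouse arrays. A level is the log2 of the processed spot signal minus the 75th percentile of its array, so that a difference of 1 is 2-fold, and a level of 0 is that below which 75% of probes lie. Arrays are listed in the order LPS 1, 5 and 6 and NNK 2, 3 and 5. Spots well above background made up 55.6% to 57.3% on the LPS arrays and 62.7% to 67.5% on the NNK arrays, and the lowest level still well above background was -4.70, -4.14 and -4.20 on the LPS arrays and -5.23, -4.72 and -4.80 on the NNK arrays. Levels correlated at r = 0.960 to 0.978 between LPS arrays, 0.980 to 0.991 between NNK arrays and 0.925 to 0.966 between the groups. The 6 arrays were scanned on the same day, from the same position of 6 slides, but the slides of the LPS arrays belong to one barcode series and those of the NNK arrays to another, so slide series and treatment cannot be told apart. The lung markers Sftpc, Scgb1a1, Ager, Foxj1 and Cdh5 were well above background on all 6 arrays, the thymus markers Rag1 and Ptcra on none, and Xist was detected while Ddx3y, Eif2s3y, Kdm5d and Uty were not, matching the label female. PBS 1 and PBS 2 instead showed Y-linked genes and no Xist. Nothing in the labels says which mouse or extraction each array came from, so p-values measure the spread between these samples.

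The lungs of LPS mice carried more transcripts of adaptive immunity, interferon gamma response, complement, antigen presentation and mucus, while the lungs of NNK mice carried more of some immediate-early, EGF receptor and neuronal genes. Of 19466 items tested (12943 genes with a symbol and 6523 probes without one), 1269 passed an adjusted p of 0.05 in limma, 6.52% of all. These were 665 higher in LPS (3.42%) and 604 higher in NNK (3.1%), and 671 of them have a symbol, 411 higher in LPS and 260 higher in NNK. Counts of called list members below compare with 3.42% of all items toward LPS and 3.1% toward NNK. For each of the 1269 the LPS values lay wholly above or wholly below the NNK values, which also held for 24.3% of all items. Differences of at least 2 on the log2 scale numbered 294 toward LPS and 92 toward NNK. The median difference over all items was -0.14. The items higher in LPS were mostly measured on both sides, since 572 of 665 were well above background on all 6 arrays, against 266 of 604 of those higher in NNK. Removing 1 array changed the count to 722 without LPS 5, 2885 without LPS 6, 773 without NNK 2, 630 without NNK 3 and 674 without NNK 5. With normexp, which here replaced the scanner's processed signal by the median spot and background signals with an offset of 50, 177 items passed, 169 higher in LPS and 8 higher in NNK, and 81 of the 1269 differences turned sign. The signal, the background correction and the offset changed together in that setting. An unadjusted p under 0.05 was found for 20.3% of all items, 6.76% toward LPS and 13.6% toward NNK, and 63.7% of all differences were negative. Under quantile normalization the share of called items that were higher in LPS was 65.9%, and under cyclic loess 68.9%, against 52.4% here.

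**Figure D1:**
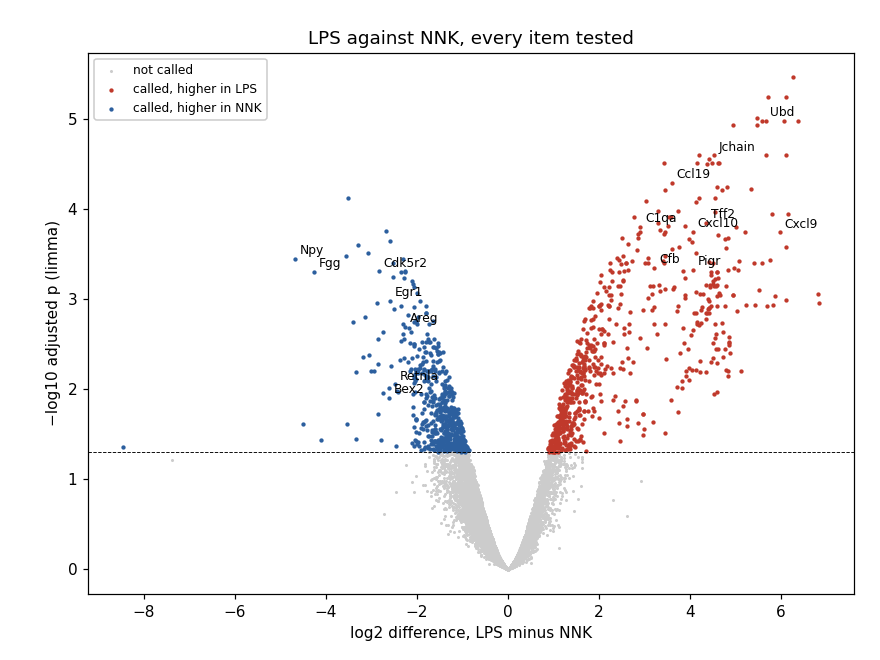
Log2 difference (LPS minus NNK, x axis) against -log10 of the adjusted p (y axis) for each of the 19466 items; red marks the 665 called higher in LPS, blue the 604 called higher in NNK, and the dashed line an adjusted p of 0.05. Cxcl9, Ubd and Jchain stand at the right, and Npy and Fgg at the left.

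Interferon-inducible GTPases were higher in LPS lungs nearly throughout the family. Of the 16 members tested, 13 passed the test, each higher in LPS, where 3.42% of all items did, and the median difference was 2.02 against -0.14 over all items. The guanylate-binding proteins and immunity-related GTPases attack the vacuoles of intracellular microbes, and several are near-identical copies, so that probes may share signal among them. To show what these genes have in common beside their level, the 30 bases around each interferon-stimulated response element in the promoters of the tested members and of Cxcl10 are given here, from RefSeq on GRCm38.p6. Capitals mark the motif, GAAA and GAAA with 2 bases of any kind between, or its reverse complement with TTTC, and each line reads 5′ to 3′ on the strand of the gene.
Cxcl10, chr5:92349083-92349112, minus strand: tcacgctttgGAAAGTGAAActtacctcac
Gbp2, chr3:142620594-142620623, plus strand: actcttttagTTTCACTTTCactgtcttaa
Gbp2b, chr3:142594700-142594729, plus strand: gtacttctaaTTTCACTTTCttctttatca
Gbp3, chr3:142559989-142560018, plus strand: caggacacagTTTCAGTTTCtatttcccag
Gbp3, chr3:142559995-142560024, plus strand: acagtttcagTTTCTATTTCccagatccct
Gbp5, chr3:142496759-142496788, plus strand: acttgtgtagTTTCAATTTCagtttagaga
Gbp7, chr3:142530273-142530302, plus strand: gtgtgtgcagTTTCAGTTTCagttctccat
Igtp, chr11:58199512-58199541, plus strand: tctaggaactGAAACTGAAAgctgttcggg
Irgm1, chr11:48871431-48871460, minus strand: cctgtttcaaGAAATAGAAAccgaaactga
Irgm1, chr11:48871425-48871454, minus strand: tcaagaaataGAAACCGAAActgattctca
Irgm2, chr11:58214903-58214932, plus strand: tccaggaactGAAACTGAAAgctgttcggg
Tgtp1, chr11:48992304-48992333, minus strand: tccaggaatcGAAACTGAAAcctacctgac
Of the 16 members tested, 10 had a promoter window (250 bases before to 50 after the start), and the others were not searched. Of these 10, 9 held the motif, all but Ifi47, against 3.99% of 27025 genes with a window and 3.72% of the 10314 tested. The list was drawn up as interferon-induced genes, so its high share may follow from that choice and is not a result of these arrays. Among the 320 genes called higher in LPS that have a window, 12.5% held it, and among the 201 called higher in NNK, 1.49%. Gbp3 and Irgm1 hold overlapping matches, of which both are listed. The gamma-activated sequence, TTCNNNGAA, which is its own reverse complement, stood in 5 of the 10 GTPase windows against 9.55% of all genes. The kappaB motif, GGGA and TTTCC with any 1 base between, stood in 2.81% of the windows of genes called higher in LPS, 1.99% of those called higher in NNK and 0.466% of all. A match describes letters and does not show that a factor binds there.

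The whole 250 bases upstream of the start are shown for the chemokine Cxcl10 and the GTPases Gbp5 and Igtp, because the arrangement of the matches differs among them. Capitals mark the interferon-stimulated response element, the gamma-activated sequence and the kappaB motif, sought on both strands; none of the matches in these windows overlap.
Cxcl10, chr5:92348890-92349139, minus strand: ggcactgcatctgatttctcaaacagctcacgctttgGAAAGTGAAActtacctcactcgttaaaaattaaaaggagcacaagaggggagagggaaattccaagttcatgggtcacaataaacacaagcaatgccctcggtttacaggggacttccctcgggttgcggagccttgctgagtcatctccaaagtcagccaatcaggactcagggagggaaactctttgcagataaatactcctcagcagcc
Gbp5, chr3:142496684-142496933, plus strand: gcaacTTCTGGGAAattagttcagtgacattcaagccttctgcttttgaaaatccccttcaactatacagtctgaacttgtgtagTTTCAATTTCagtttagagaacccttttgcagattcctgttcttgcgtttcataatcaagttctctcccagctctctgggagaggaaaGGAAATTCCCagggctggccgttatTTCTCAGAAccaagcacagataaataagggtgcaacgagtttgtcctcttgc
Igtp, chr11:58199306-58199555, plus strand: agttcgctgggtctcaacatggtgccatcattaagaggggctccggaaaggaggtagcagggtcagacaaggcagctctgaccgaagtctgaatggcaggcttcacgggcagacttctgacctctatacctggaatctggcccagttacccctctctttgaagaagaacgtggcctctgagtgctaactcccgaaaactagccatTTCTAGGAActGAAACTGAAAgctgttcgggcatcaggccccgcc
The Cxcl10 window holds 1 response element, from base -213 to -204 before the start. It holds no match to the kappaB letters used here, and looser spellings of that motif were not sought. In Gbp5 the response element lies at -165 to -156, a kappaB match at -77 to -68 and gamma-activated sequences at -245 to -237 and at -52 to -44. In Igtp the gamma-activated sequence at -45 to -37 stands 2 bases before the response element at -34 to -25.

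Gbp5 had levels of 1.28, 1.99 and 1.44 on the LPS arrays and -1.25, -0.52 and -0.92 on the NNK arrays. The difference was 2.47 (SE 0.29, adjusted p 0.000719), with no overlap between the groups. Igtp, an immunity-related GTPase, was brighter, with 4.81, 5.70 and 4.24 in LPS and 2.23, 2.71 and 2.15 in NNK, a difference of 2.55 (SE 0.36, adjusted p 0.0021). Iigp1, of the same family, differed by 2.64 (SE 0.43, adjusted p 0.00454). Gbp2b had the widest gap in the family, with NNK values of -5.97, -5.06 and -5.29, none of them well above background, and at least 9.54-fold more in LPS. All 3 NNK arrays lay below all 3 LPS arrays for each of these 4 genes, and normexp ended the call of Gbp2b alone among them. In PBS lungs the family was not low: the list median was 1.78 over PBS arrays, 1.41 over LPS arrays, 0.41 over NNK arrays and 2.47 with both agents, so the LPS arrays stood within the PBS range and the NNK arrays below it.

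Among called genes with a symbol that were well above background on all 6 arrays, the largest difference was that of Cxcl9, the interferon gamma-induced chemokine for CXCR3-bearing T cells. Its levels were 1.79, 2.85 and 1.14 in LPS and -5.15, -2.91 and -4.12 in NNK, a difference of 5.99 (SE 0.55, adjusted p 0.000182). Cxcl10, which binds the same receptor, stood at 1.02, 2.34 and 1.93 in LPS against -2.88, -2.02 and -2.04 in NNK, a difference of 4.08 (SE 0.37, adjusted p 0.000179). Ifng itself, made by T cells and natural killer cells, was -0.15, 0.72 and -0.56 against -3.98, -3.14 and -3.18, a difference of 3.44 (SE 0.37, adjusted p 0.000401). Cxcr6, a homing receptor of tissue T cells, differed by 3.35 (SE 0.30, adjusted p 0.000173). In the list of interferon gamma and T cell chemokine genes, 10 of 20 passed, each higher in LPS, with a median difference of 1.11. No NNK array reached the LPS range for these 4 genes. Among PBS arrays, PBS 1 was far above the others for Cxcl9 and Cxcl10, with Cxcl10 at 1.60, -4.00 and -2.93 on PBS 1, 2 and 3. For Ifng and Cxcr6, PBS 1 lay between PBS 2 and PBS 3. In the type I interferon antiviral list 3 of 25 passed, Zbp1 (2.37), Oas1a (1.71) and Bst2 (1.38), with a median of 0.40. The calls of Oas1a and Bst2 ended in 11 and 6 of the 17 other settings. Called antiviral genes numbered 1 without LPS 5, NNK 3 or NNK 5 and 6 without LPS 6 toward LPS. With normexp the call of Ifng ended (difference 1.38), while Cxcl9, Cxcl10 and Cxcr6 kept theirs.

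**Figure D2:**
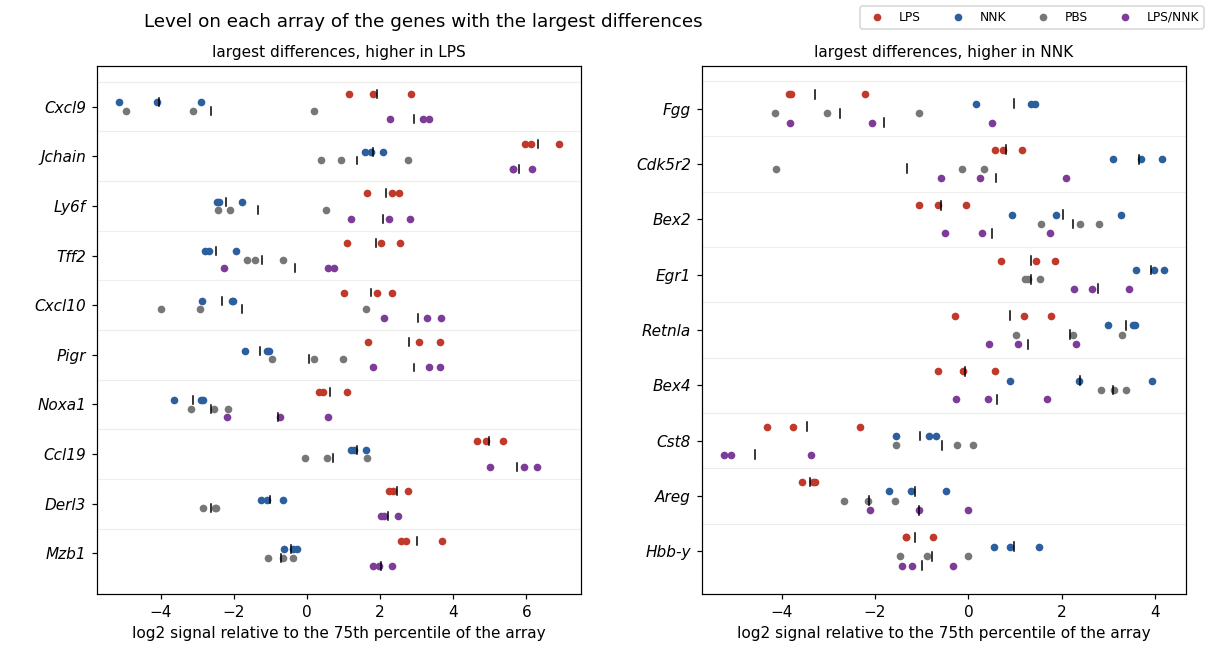
Level on each array (x axis, log2 relative to the 75th percentile of the array) of genes with the largest differences in each direction, with LPS in red, NNK in blue, PBS in grey and LPS/NNK in purple; the short black lines are group means. The genes shown were picked only among called genes whose LPS and NNK arrays do not overlap. Cxcl9 spans 1.14 to 2.85 in LPS against -5.15 to -2.91 in NNK.

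T cell genes were higher in the LPS lungs. Of 21 T cell receptor and surface genes tested, 14 passed, each higher in LPS, and all 21 differences were positive, with a median of 1.25. Called T cell genes numbered 8 without LPS 1, 6 without LPS 5 or NNK 3, 7 without NNK 2 and 9 without NNK 5 toward LPS. Cd5 and Cd6, coreceptors that tune T cell signalling, differed by 2.27 (SE 0.28, adjusted p 0.000899) and 2.20 (SE 0.28, adjusted p 0.00116). Cd6 lay at 4.42, 4.42 and 4.44 in LPS and 2.37, 1.68 and 2.61 in NNK. Icos, a costimulatory receptor of activated T cells, differed by 1.99 and the adaptor Lat by 1.65. Cd3e, the defining T cell marker, was -0.34, -0.23 and -0.89 in LPS and -1.48, -1.49 and -1.71 in NNK, a difference of 1.08 (adjusted p 0.0356) that lost its call without LPS 1, LPS 5, NNK 2, NNK 3 or NNK 5. In these bulk samples, more cells of a type and more RNA per cell cannot be told apart. The median level of the list was 0.96, 0.60 and -0.34 on the LPS arrays, with LPS 6 lowest, and from -1.41 to -0.95 in NNK. Cytotoxic and natural killer genes showed 4 of 15 called toward LPS (Cst7, Xcl1, Il2rb and Nkg7), with a median of 0.41 that came to -0.18 under normexp. Of 18 checkpoint genes, 9 were called, each higher in LPS. They include the receptors Pdcd1 (3.33, SE 0.39, adjusted p 0.000693) and Lag3 (1.82), and the ligand Pdcd1lg2 (2.67). Normexp left 3 T cell genes called and ended the calls of Icos, Lat, Cd3e, Pdcd1, Lag3 and Pdcd1lg2, among others.

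Antibody-secreting cells gave some of the widest gaps. Jchain, the joining chain of secreted IgA and IgM, had levels of 5.97, 6.13 and 6.89 in LPS and 2.08, 1.59 and 1.76 in NNK, a difference of 4.52 (SE 0.30, adjusted p 2.54e-05). Mzb1, a chaperone of antibody assembly, was 3.70, 2.58 and 2.72 against -0.28, -0.39 and -0.64, a difference of 3.44 (SE 0.32, adjusted p 0.000192). Derl3, which clears misfolded proteins from the endoplasmic reticulum of secretory cells, differed by 3.46 (SE 0.27, adjusted p 6.21e-05). LPS and NNK arrays did not overlap for these 3 genes. The plasma cell receptor for survival signals, Tnfrsf17, differed by 3.41 (adjusted p 0.000376), a call that ended under normexp (difference 1.49). Of the 12 plasma cell genes tested, 6 passed, each higher in LPS, with a median of 1.35, and the list stood at -0.69 in PBS, 2.67 in LPS, -0.44 in NNK and 1.98 in the combined group. Of 21 B cell genes, 7 passed, among them Pou2af1, a coactivator of antibody genes (2.04, SE 0.23, adjusted p 0.000546) and the adaptor Blnk (1.59). The defining marker Ms4a1 (0.80, adjusted p 0.154) did not pass. Called B cell genes numbered 2 without LPS 5, 15 without LPS 6 and 4 without NNK 5 toward LPS.

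Genes that organise lymphoid tissue were higher in LPS for 6 of the 14 tested, with a median of 1.005. Ccl19, the chemokine that draws CCR7-bearing T cells and dendritic cells, stood at 5.35, 4.91 and 4.66 in LPS and 1.29, 1.61 and 1.21 in NNK, a difference of 3.61 (SE 0.27, adjusted p 5.14e-05). Cxcl13, which draws B cells into follicles, was 0.24, 0.17 and -0.11 against -2.67, -2.26 and -2.13, a difference of 2.45 (SE 0.25, adjusted p 0.000369). The lymphotoxins Ltb and Lta differed by 2.31 and 2.26. All 3 LPS arrays exceeded all 3 NNK arrays for each of these 4 genes. Under normexp the calls of Cxcl13 and Lta ended.

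Complement and antigen presentation genes were both higher in the LPS lungs. The 3 subunits of the recognition molecule C1q, made largely by macrophages, were called: C1qa at 2.91 (SE 0.26, adjusted p 0.000158), C1qb at 2.59 (adjusted p 0.000394) and C1qc at 2.53 (adjusted p 0.000334). C1qa read 5.56, 5.32 and 4.85 in LPS and 2.44, 2.30 and 2.25 in NNK. Factor B, the protease of the alternative pathway, was 6.64, 6.31 and 5.34 against 3.20, 2.87 and 2.55, a difference of 3.22 (SE 0.35, adjusted p 0.000453). In all, 10 of 21 complement genes passed, each higher in LPS, with a median of 1.16. The MHC class II list had 8 of 13 called and all 13 positive, with a median of 1.49. H2-Ab1, the class II beta chain, stood at 8.52, 8.85 and 8.33 in LPS and 6.59, 6.73 and 6.77 in NNK, a difference of 1.87 (SE 0.24, adjusted p 0.00127), and H2-Oa, which regulates peptide loading, differed by 2.22. For class I and the immunoproteasome, 9 of 17 passed with a median of 1.14, including the immunoproteasome subunits Psmb9 (1.87) and Psmb8 (1.68). Each gene named here kept its call in all 17 other settings. Called complement genes numbered 6 without LPS 5 toward LPS. Called class I genes numbered 3 without LPS 5 or NNK 5 and 4 without NNK 2 or NNK 3 toward LPS. H2 genes are close copies, and probes for them may share signal.

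Of 24 genes of recruited monocytes and macrophages, 11 were higher in LPS and 1 in NNK, with a median of 1.12. Ms4a7, a membrane protein of macrophages, was 1.56, 1.63 and 1.28 in LPS and -1.06, -1.78 and -1.39 in NNK, a difference of 2.90 (SE 0.27, adjusted p 0.000181). Fcgr1, the high-affinity receptor for IgG, differed by 2.44 (SE 0.27, adjusted p 0.000502). Cd5l, a secreted macrophage protein, was not well above background on any NNK array and at least 10.3-fold higher in LPS. Under normexp the call of Cd5l ended (difference 0.50), while Ms4a7 and Fcgr1 kept theirs. The 1 member in the other direction was Cd163, the scavenger receptor for haptoglobin and haemoglobin, at -6.87, -4.30 and -5.17 in LPS, where no array was well above background, and -2.67, -2.94 and -2.48 in NNK, at least 3.13-fold higher. The mean PBS level of Cd163 was -1.98, above both groups. Alveolar macrophage and lipid-handling genes showed 1 of 24 called toward LPS and 3 toward NNK, where 3.42% and 3.1% of all items were. The list median was 0.09, with 13 differences positive and 11 negative. The 3 called toward NNK were Mmp12, a macrophage elastase (-2.85, SE 0.60, adjusted p 0.0188), Spp1, osteopontin (-1.13), and Cd36, a fatty acid transporter (-0.95). Spp1 and Cd36 lost their calls in 8 and 7 of the 17 other settings, and Cd163, Mmp12, Spp1 and Cd36 all lost theirs under normexp. The alveolar macrophage markers Marco (1.34, adjusted p 0.0509) and Siglecf (-0.19, adjusted p 0.779) did not pass. Of the dendritic cell genes, 7 of 15 were higher in LPS, including Itgae, an integrin of mucosal dendritic and T cells (1.87) and Clec10a (1.61). Called dendritic cell genes numbered 3 without LPS 5 or NNK 5 and 4 without NNK 2 or NNK 3 toward LPS. The call of Itgae ended under normexp. Without LPS 5, NNK 2 or NNK 5 the calls of Mmp12, Spp1 and Cd36 ended, and without NNK 5 that of Cd163.

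Chemokines and cytokines for other leukocytes were mixed. Of 15 inflammatory CC chemokine and receptor genes, 8 were higher in LPS and 1, the eosinophil receptor Ccr3, in NNK, with a median of 1.40. The call of Ccr3 ended without LPS 5, NNK 3 or NNK 5. Ccl8, a monocyte chemokine, was 2.35, 3.96 and 3.32 in LPS and -0.31, 0.11 and 0.35 in NNK, a difference of 3.16 (SE 0.38, adjusted p 0.000874), and Ccl20, the ligand of CCR6, differed by 3.22 (SE 0.42, adjusted p 0.00124). Ccl20 was well above background on only 1 NNK array. Called CC chemokine genes numbered 5 without LPS 5, NNK 2 or NNK 5 toward LPS. The interleukin 17 axis gave 3 of 8, Ccl20, its receptor Ccr6 and Nfkbiz. Neutrophil chemokines were higher in part. Cxcl3, Cxcl5 and Cxcl1 of 8 tested were called toward LPS, with a list median of -0.11 that turned to 0.04 under cyclic loess. Cxcl3 was not well above background on any NNK array and at least 4.61-fold higher in LPS. Under normexp Cxcl5 came to -0.15 and the calls of all 3 ended. Called CXC chemokine genes numbered 1 without LPS 5, NNK 2 or NNK 3 toward LPS. The neutrophil markers themselves had negative differences that did not pass, S100a8 at -0.92 (adjusted p 0.125) and S100a9 at -0.94 (adjusted p 0.0687). Of 21 neutrophil genes, 2 were called toward LPS and 2 toward NNK, the first Camp (1.96, -0.14 under normexp) and Lcn2, the latter Retnlg (-1.64) and Stfa2 (-1.39). In the interleukin 1 and TNF family list 7 of 20 passed, led by Tnf at -0.69, -0.45 and -1.09 in LPS against -3.34, -3.68 and -3.77 in NNK, a difference of 2.86 (SE 0.26, adjusted p 0.000188). Of the genes that sense endotoxin, 4 of 21 passed (Aoah, Ly86, Tlr1 and Cd14, the last losing its call in 9 of the 17 other settings), Aoah being the enzyme that deacylates lipopolysaccharide (1.80, adjusted p 0.00126). Aoah turned to -0.01 under normexp. NF-kB genes gave 3 of 18, with Nfkbiz, an inducible coactivator, at 2.54 (adjusted p 0.000633), and the JAK-STAT and interferon regulatory factor list gave 5 of 22, among them Irf8 (1.36). Called NF-kB genes numbered 1 without LPS 5, NNK 2, NNK 3 or NNK 5 toward LPS. Called JAK-STAT genes numbered 8 without LPS 6 and 2 without NNK 2, NNK 3 or NNK 5 toward LPS. Of the called genes named in this paragraph, only Ccl8 kept its call under normexp. There Ccl20 came to 0.17, Tnf to 0.84, Nfkbiz to 1.74 and Tlr1 to 0.45.

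The airway lining also differed. Pigr, the receptor that carries IgA and IgM across epithelium, stood at 3.64, 3.05 and 1.68 in LPS and -1.04, -1.09 and -1.69 in NNK, a difference of 4.07 (SE 0.44, adjusted p 0.000471). Tff2, a trefoil peptide secreted with mucus, was 2.04, 2.54 and 1.08 against -2.69, -2.79 and -1.96, a difference of 4.36 (SE 0.38, adjusted p 0.000143). The groups did not overlap for either gene. Of 15 mucin and goblet cell genes 6 passed, each higher in LPS, with a median of 0.98. Called mucin and goblet cell genes numbered 2 without LPS 1, LPS 5, NNK 2 or NNK 5 and 3 without NNK 3 toward LPS. Clca1, a protein secreted by goblet cells, was -0.28, 1.20 and -1.98 on the LPS arrays, with LPS 6 lowest, and -3.61, -3.29 and -2.73 on the NNK arrays. The difference was 2.85 (SE 0.63, adjusted p 0.0236), and the call ended without LPS 1, LPS 5, NNK 2 or NNK 5. Normexp and a fit of all 12 arrays also ended the call of Clca1. Itln1, a lectin of goblet cells, differed by 2.57 (adjusted p 0.0136), a call that ended without LPS 1, LPS 5 or NNK 5. The call of Itln1 also ended under normexp (difference 1.10) and with all 12 arrays in the fit. The list median was -0.28, 0.86 and -1.77 on the LPS arrays, so LPS 6 lay near the NNK values of -2.40 to -1.87. Acute phase and mucosal defence genes gave 7 of 26, including Reg3g, an antibacterial lectin (2.82), Saa3 (2.21) and Lcn2, which binds bacterial siderophores (1.60). The calls of Reg3g, Saa3 and Lcn2 ended in 4, 3 and 9 of the 17 other settings, and Saa3 was 4.48, -2.94 and -4.02 on PBS 1, 2 and 3. Called acute phase and mucosal genes numbered 3 without LPS 5 and 4 without NNK 2 or NNK 3 toward LPS. No member of the list was called higher in NNK, but 5 had an unadjusted p under 0.05 in that direction, against 8 toward LPS. Fgg and the acute phase protein Orm3 are not on this list and were called higher in NNK (-4.26 and -3.14). Of 18 club cell genes 2 passed, Reg3g and the chloride channel subunit Gabrp (0.89). Gabrp lost its call in 7 of the 17 other settings, normexp, no filter on dim probes and without LPS 1, LPS 5, NNK 2, NNK 3 or NNK 5. The club cell markers Scgb1a1 (0.27, adjusted p 0.58) and Cyp2f2 (0.22, adjusted p 0.725) did not pass.

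The genes higher in NNK lungs included fewer with a symbol, and their differences were smaller, with a median of -1.40 over the 604 items against 1.80 over the 665 higher in LPS. The largest among those measured on all 6 arrays was Fgg, the gamma chain of fibrinogen, at -3.79, -2.23 and -3.84 in LPS and 0.16, 1.42 and 1.35 in NNK, a difference of -4.26 (SE 0.47, adjusted p 0.000498). Cdk5r2, an activator of the kinase Cdk5 known from neurons, was 0.74, 0.57 and 1.15 against 3.71, 3.09 and 4.15, a difference of -2.83 (SE 0.31, adjusted p 0.000493). These are the only 2 of the 10 leading genes toward NNK that kept a call under normexp, and Cdk5r2 lost it when all 12 arrays entered the fit, with or without slide as a random block. Bex2 and Bex4, close copies of each other, differed by -2.60 (a call that ended without LPS 1) and -2.47, the latter with an adjusted p of 0.0431 that did not hold in 10 of the 17 other settings. Cst8, a cystatin known from the testis and epididymis, was -4.32, -3.77 and -2.32 against -1.56, -0.84 and -0.69, a difference of -2.44 whose call ended without LPS 5 or NNK 5. Hbb-y, an embryonic globin whose probe may see other beta globins, differed by -2.13. Mean PBS levels were 2.25 for Bex2, 3.11 for Bex4 and -0.57 for Cst8, near or above the NNK means of 2.02, 2.40 and -1.03. The LPS means of these genes were -0.58, -0.07 and -3.47. For Fgg, Cdk5r2 and Hbb-y the mean PBS levels were -2.75, -1.31 and -0.79, below the NNK means of 0.97, 3.65 and 0.98. The neuropeptide Npy was -6.19, -6.24 and -5.52 in LPS, where no array was well above background, and -1.77, -2.13 and -0.03 in NNK, at least 8.19-fold higher. Of 12 neuronal genes 3 passed, each higher in NNK (Npy, Cdk5r2 and Calca, the precursor of the peptide CGRP), where 3.1% of all items did, with a median of -0.56. The call of Calca ended without LPS 1, LPS 5, NNK 2 or NNK 3 and under normexp.

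Some genes were well above background on all 3 arrays of one group and on none of the other, so their differences are lower bounds. Toward LPS, Ubd, a ubiquitin-like protein induced by interferon gamma and TNF, led with levels of -0.20, 0.74 and -0.24 against -5.79, -5.74 and -5.17 and at least 32.3-fold more in LPS (adjusted p 1.05e-05). Oosp1, known from oocytes, was at least 11-fold higher, the secreted protein C1qtnf3 at least 10.2-fold, and Mup1, a major urinary protein with many close copies, at least 9.03-fold. Mup1 varied widely within LPS, at -3.13, 0.34 and -2.34. Toward NNK, after Npy, came the acute phase protein Orm3 at least 3.19-fold higher, and Sema4g, Cd109 and Gfod1 at least 3.13-fold, 2.98-fold and 2.95-fold. Over all items, 29 of the 665 higher in LPS and 258 of the 604 higher in NNK were well above background on no array of the lower group. Under normexp the calls of Ubd, Oosp1, C1qtnf3, Mup1, Npy, Orm3, Sema4g, Cd109 and Gfod1 ended. Measured on all 6 arrays were also Ly6f, a surface protein with close copies, at 2.51, 2.32 and 1.64 against -2.40, -1.78 and -2.47, a difference of 4.38 (SE 0.31, adjusted p 3.19e-05), and Noxa1, an activator of NADPH oxidase, at 1.10, 0.43 and 0.33 against -2.85, -2.90 and -3.64, a difference of 3.75 (SE 0.31, adjusted p 0.000105) that lost its call under normexp.

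A few immediate-early genes, which switch on within minutes of a stimulus, were higher in NNK. The list median was 2.50, 2.74 and 2.76 in LPS and 3.59, 3.81 and 3.93 in NNK, with PBS at 2.83. Of 23 tested, 4 passed, each higher in NNK, where 3.1% of all items did, and the median difference was -0.67. Egr1, a zinc finger factor downstream of ERK signalling, was 0.70, 1.86 and 1.44 in LPS and 3.59, 3.98 and 4.19 in NNK, a difference of -2.58 (SE 0.32, adjusted p 0.00104). The others were Dusp1, a phosphatase that switches off MAP kinases (-1.76, adjusted p 0.0329), Fos (-1.64, adjusted p 0.0224) and Ccn1 (-1.38, adjusted p 0.0137). Called immediate-early genes numbered 2 without LPS 1 or LPS 5 and 1 without NNK 5 toward NNK. The cAMP response element TGACGTCA, its own reverse complement, stood in 3 of 21 windows of this list against 2.03% of all genes and 3.23% of those tested. Of the 201 genes called higher in NNK, 1.99% held it. The 3 list members were Dusp1, Btg2 and Maff, of which only Dusp1 was called. The CArG box, CCWWWWWWGG with W for A or T, was also sought. It stood in 2 of the 21 windows, against 1.81% of all genes and 1.71% of those tested. The cAMP response element is shown in capitals for Dusp1 and Areg, both called higher in NNK. Areg is on the EGF receptor list, not on this one.
Areg, chr5:91139527-91139556, plus strand: gggctggtccgTGACGTCAcgggcggtggc
Dusp1, chr17:26508597-26508626, minus strand: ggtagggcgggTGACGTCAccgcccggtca
Areg, a ligand of the EGF receptor, was -3.56, -3.32 and -3.29 in LPS and -1.70, -1.23 and -0.48 in NNK, a difference of -2.25 (SE 0.32, adjusted p 0.00203). Spry4, a feedback inhibitor of receptor tyrosine kinases, differed by -3.06 (SE 0.49, adjusted p 0.00418). Of 28 genes of EGF receptor signalling and its feedback 5 passed, each higher in NNK: Egr1, Areg, Spry4, Fos and Spry2, the last chosen for naming after its values were seen. The list median was -0.55, and 3.1% of all items were called toward NNK. Called EGF receptor genes numbered 3 without LPS 1, LPS 5 or NNK 5 toward NNK. Under normexp the calls of Egr1, Areg, Spry4, Dusp1, Fos and Ccn1 ended, with Egr1 at -2.04 (adjusted p 0.101).

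Type 2 genes went both ways. Toward NNK were Retnla, a product of alternatively activated macrophages (-0.29, 1.19 and 1.77 in LPS, 3.58, 2.99 and 3.54 in NNK, a difference of -2.48, SE 0.45, adjusted p 0.00886), Ccl24, a chemokine for eosinophils (-2.07, SE 0.27, adjusted p 0.00123) and Arg1, arginase (-2.09, SE 0.40, adjusted p 0.0114). Toward LPS were Clca1 and Chil3, a chitinase-like protein of macrophages at 1.14 (adjusted p 0.0308), whose call ended in 8 of the 17 other settings, among them those without LPS 5, NNK 2, NNK 3 or NNK 5. Arg1 was well above background on no LPS array, so its difference is a lower bound, at least 1.60-fold higher in NNK. Ccl24 was well above background on 2 of the 3 LPS arrays. Mean levels in LPS, NNK and PBS were -5.76, -3.66 and -3.16 for Arg1 and -4.46, -2.39 and -2.61 for Ccl24. The other 14 of 19 genes did not pass, and the list median was -0.34. The LPS and NNK arrays did not overlap for Retnla, and its PBS levels were 3.30, 2.25 and 1.01. Under normexp the call of each of these 5 genes ended.

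Genes of carcinogen handling and DNA damage did not pass. Of 27 cytochrome P450 and NNK-metabolising genes, 0 were called in limma and 3 had an unadjusted p under 0.05. Of 32 Nrf2 and glutathione genes 0 were called (2 at an unadjusted p under 0.05), of 32 DNA repair genes 0 (1). Of 29 p53 target genes 0 were called (7, each higher in NNK). Over all items the unadjusted share was 20.3% in both directions and 13.6% toward NNK, the direction of the 7 p53 targets. The medians of these lists, in the order given, were -0.10, -0.18, 0.04 and -0.19, near the -0.14 of all items. Cyp2e1, which oxidises nitrosamines, differed by 1.17 with an adjusted p of 0.163, and Rrm2b, a p53 target that supplies nucleotides for repair, by -1.02 with an adjusted p of 0.0843. The median SE of a difference over all items was 0.28.

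Few genes of the structural cells of the lung passed the test. Calls compare with 6.52% of all items in both directions. Counts at an unadjusted p under 0.05, given in brackets, compare with 20.3% of all items, 6.76% toward LPS and 13.6% toward NNK. Of 21 surfactant and alveolar type 2 genes, 0 were called in limma (3 at an unadjusted p under 0.05), with a median of -0.46 and 17 of 21 differences negative, and of 19 alveolar type 1 genes 0 (3), with 18 of 19 negative and a median of -0.45 that came to 0.03 under normexp. Sftpc, the defining surfactant protein, was 9.36, 9.90 and 10.07 in LPS and 9.995, 10.34 and 10.58 in NNK, a difference of -0.53 (adjusted p 0.332) with the groups overlapping. Abca3, which loads surfactant lipid, came closest at -1.04 (adjusted p 0.063). Of 27 collagen and fibroblast genes 0 were called (7 at an unadjusted p under 0.05), and of 26 endothelial genes 3, the adhesion molecule Vcam1 (1.32) and the chemokine receptor Ackr1 (1.64) toward LPS and the endothelin receptor Ednrb (-0.90) toward NNK. The endothelial median was -0.31, with 22 of 26 differences negative. The call of Ednrb ended in 11 of the 17 other settings. These included normexp, cyclic loess, the slide block and leaving out any 1 array except LPS 6. The call of Ackr1 ended without LPS 5 and under normexp (difference 0.51). That of Vcam1 ended under normexp and with the mean over probes. Of 34 cell cycle genes 1 passed, Tk1 (1.35), and 31 of 34 differences were positive. An unadjusted p under 0.05 was found for 14, each higher in LPS, against 6.76% of all items in that direction. The call of Tk1 ended without LPS 5, NNK 3 or NNK 5 and under normexp. Motile cilium genes gave 0 of 16 (0 at an unadjusted p under 0.05), basal and squamous epithelial genes 0 of 17 (7), with 16 of 17 negative and a median of -0.58, and mitochondrial respiratory chain genes 0 of 31 (0). Fatty acid and cholesterol synthesis genes gave 0 of 25 (4), and 1 gene passed in each of the lists of metalloproteinases (Mmp12, of 16), the circadian clock (Ciart at -1.18, of 19) and endoplasmic reticulum folding (Sdf2l1 at 1.19, of 24). These were 6.25%, 5.26% and 4.17% of their lists, against 6.52% of all items. Without NNK 2, NNK 3 or NNK 5 the calls of Ciart and Sdf2l1 ended, and without LPS 5 that of Sdf2l1. Both calls also ended under normexp, and that of Ciart with all 12 arrays, with or without slide as a random block. Heart, muscle, blood, fat and thymus genes gave 0 of 25 (8 at an unadjusted p under 0.05), with Alas2, an erythroid enzyme, at 4.85, 5.19 and 4.65 in LPS and 6.37, 6.19 and 5.25 in NNK.

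**Figure D3:**
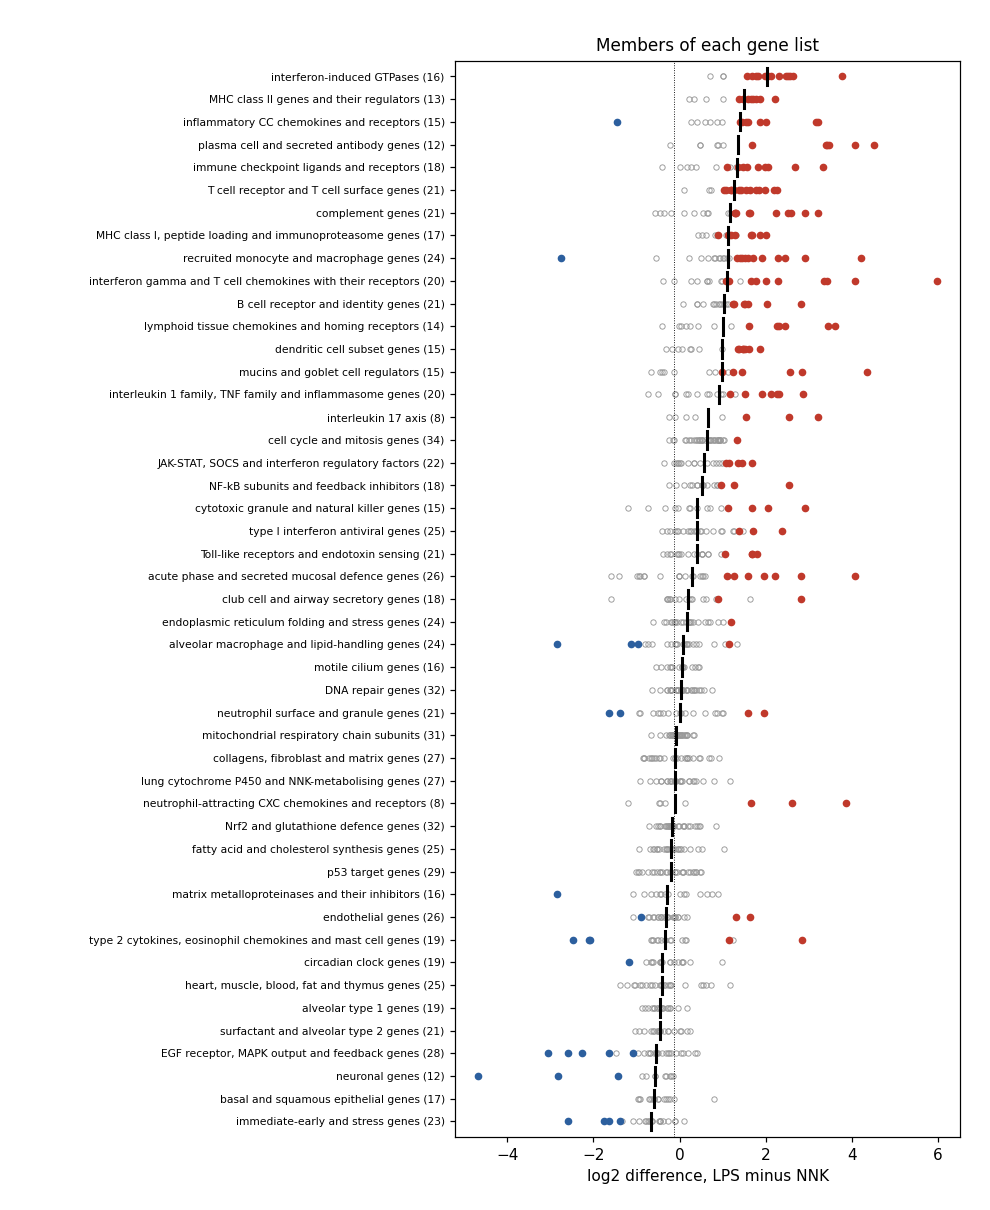
Log2 difference (LPS minus NNK, x axis) of each tested member of the 47 gene lists, with the number tested in brackets; red points passed the test toward LPS, blue toward NNK, open grey points did not pass, thick bars are list medians and the dotted line is the median of all items, -0.14. Lists are ordered by their median, from interferon-induced GTPases at 2.02 to immediate-early genes at -0.67.

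**Figure D4:**
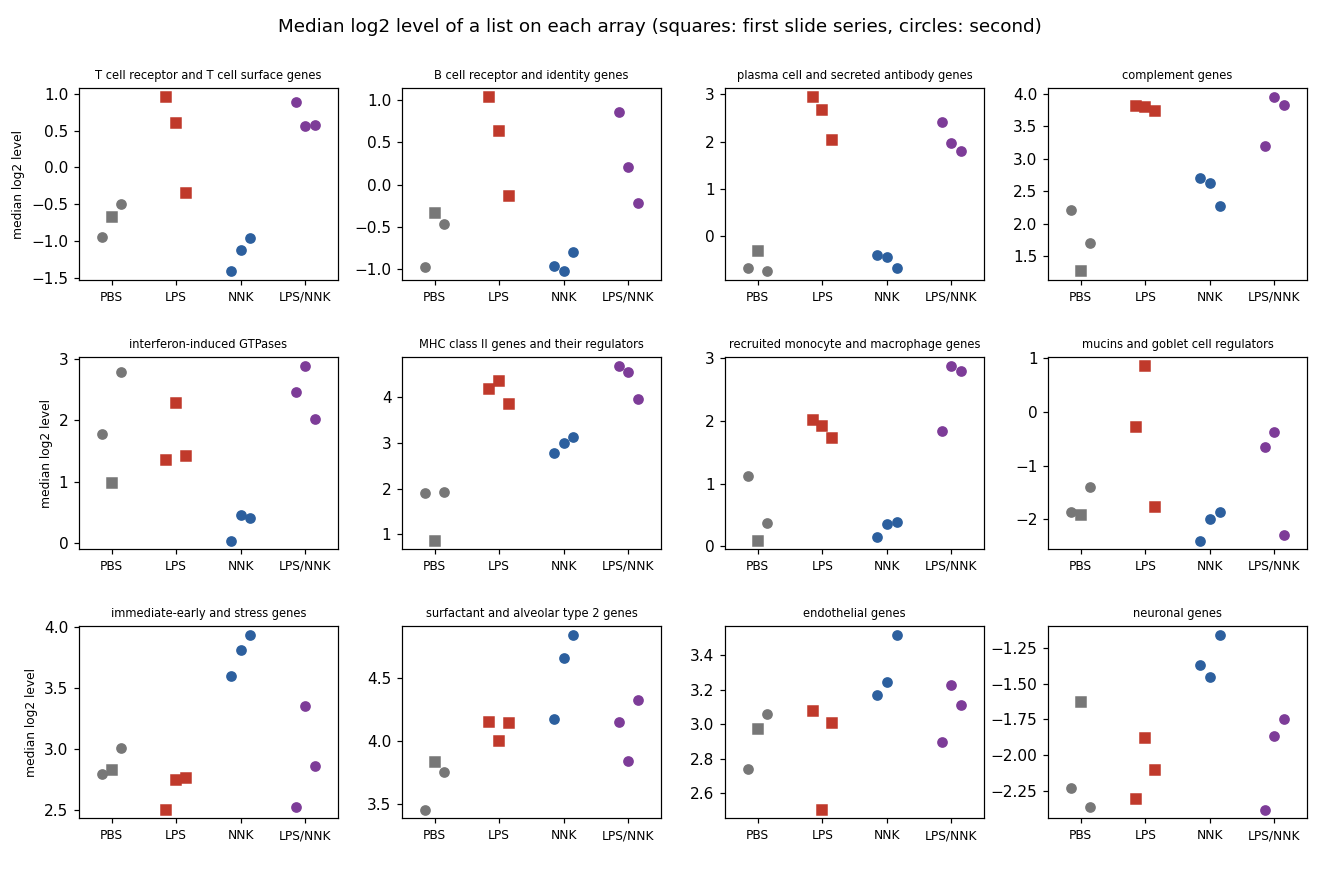
Median level of 12 gene lists on each array (y axis, log2 relative to the 75th percentile, scaled separately in each panel) in the 4 groups; squares are arrays on the first slide series and circles on the second. The plasma cell list lies above 2.0 on every LPS array and below 0 on every NNK and PBS array, and the GTPase list of the LPS arrays falls within the PBS range.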

How the data were processed

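Lung RNA was measured on 1-colour Agilent arrays, 3 LPS and 3 NNK arrays entering the contrast. The deposited scanner files give an intensity per spot, and per the file headers Agilent Feature Extraction 10.7.3.1 subtracted background and detrended it within each array. The deposited table gives log2 values that matched those used here (log2 processed signal, 75th percentile of its array subtracted), apart from probes with outlier spots; the submitters' processing notes name Partek. The number of arrays limits the precision.

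Control and outlier spots were left out and spots of a probe averaged (41137 probes, 37 dropped; 24355, or 59.2%, with a symbol from RefSeq accessions). A probe was kept if well above background on all arrays of either group (24658), and a gene was read from its brightest probe by the mean of the 6 arrays. limma 3.58.1 (lmFit, eBayes; R 4.3.3) gave 2-sided moderated tests with Benjamini-Hochberg adjustment over 19466 items. An exact permutation test of 3 against 3 could not go below 0.1. Among 4184 genes with several probes, differences of the brightest and second probe correlated at r = 0.72 across genes, which are not independent replicates. A bound ("at least N-fold") compares the bright group's mean with the lowest signal well above background on each dim array, or the probe's own signal where that is higher.

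Named genes were the 10 largest differences in each direction among called genes detected on all 6 arrays with no overlap, passing over clone names; the 6 largest bounds in each direction; up to 4 members of each list by p, with each called member of a minority direction of 5 or fewer; and defining markers. Some genes that this rule picks are not reported here. The arrays, the 47 lists and this rule were chosen with earlier results of these data known. Alternatives were normexp (offset 50, on the median spot and background signals, where the mean spot signal had been planned but was not used), quantile, cyclic loess and median centring, other filters, the mean over probes, the deposited table, all 12 arrays, slide as a random block, trend and robust moderation, and leaving out each array. Scripts were tested on simulated data. Motifs were sought on both strands of RefSeq promoter windows (GRCm38.p6).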

Additional observations from a re-analysis of the deposited data

How the results depend on the processing

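The number of items called was 1269 (665 higher in LPS, 604 in NNK). Normexp, in which the signal used, the background correction and the offset changed together, gave 177 (169 and 8). Items higher in NNK numbered 360 under quantile normalization, 350 under cyclic loess and 289 with a filter on all 6 arrays. Leaving out 1 array gave 630 (without NNK 3) to 2885 (without LPS 6) in all, 428 (without LPS 5) to 961 higher in LPS, and 195 (without NNK 3) to 1924 higher in NNK. The other counts under the other settings stayed within 1.5 times. Of 127 called named genes, normexp ended the call of 86 and turned 5, Aoah to -0.014, Camp to -0.14, Cxcl5 to -0.15, Tnfsf8 to -0.35 and Xcl1 to -0.023; the cause was not tested. The other settings ended 0 to 35 of these calls and turned no sign among them. No paired analysis was possible because only replicate number 5 occurs in both groups. The lowest level well above background was higher on LPS arrays than on NNK arrays, which limits what low genes can show.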
